A study of Rattus norvegicus with 6 samples.

Results

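Of the 14217 genes named on the rat liver arrays, 8 are described here: Alas2, Slc4a1, Ahsp, Hbb, Epb42, Gata1, Klf1 and Rhag, which mark red cells and the precursors that make them. A probe set was taken as a member when the array's annotation gave it 1 gene symbol and that symbol was one of the 8, which gave 9 of 31042 probe sets. The genes were picked with values of these same arrays known, so their levels, differences and counts of calls are given as a description, and no p-value of theirs is read as evidence. Liver RNA from 3 groups of rats was hybridised, with 2 arrays in each group. BBDR.lyp/lyp rats were sampled once hyperglycemic (post-hyperglycemia, labelled 55 days of age) or while still normoglycemic (pre-hyperglycemia, labelled 50 days). Both carry 2 copies of lyp, a Gimap5 frameshift allele that makes rats lymphopenic, and this strain becomes diabetic spontaneously. BBDR.+/+ rats (labelled 55 days) carry the normal allele and stay normoglycemic. Pre-hyperglycemia versus BBDR.+/+ thus differs in genotype and labelled age, and post-hyperglycemia versus pre-hyperglycemia in glycemia and labelled age. Post-hyperglycemia versus BBDR.+/+ differs in genotype and glycemia. Within a comparison, the parts of these cannot be told apart. All 3 groups share the diabetes-resistant BBDR background, and the lyp region was introgressed into it from the diabetes-prone BB line, so neighbouring donor sequence travels with the mutation. The labels describe a fast before the liver was taken where the methods describe free access to food, no array is linked to a single rat, and nothing says that the 2 arrays of a group came from separate animals, so an SE covers only the spread between these samples.

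Red cells are made in the liver before birth and, in rodents, in bone marrow and spleen afterwards. Adult liver RNA still carries red cell transcripts, because blood fills its vessels and young red cells (reticulocytes) keep globin and heme synthesis mRNA after losing their nucleus. In precursors, Gata1 and Klf1 switch on the genes for globin chains, heme synthesis and the red cell membrane. Fewer cells of the erythroid line and less of an mRNA per cell cannot be told apart in bulk tissue.

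The arrays carried the label's tissue: 11 of 11 hepatocyte genes were measured, their mean level lay between 13.69 and 13.72 on the log2 scale on every array, and limma, read from each gene's brightest probe set, called 0 of them in any comparison (at an unadjusted p under 0.05, 0, 1 and 2 of them). Of their 6 dimmer probe sets, 2 were called lower post-hyperglycemia versus BBDR.+/+ (Cps1, -0.85, and Hnf4a, -0.64) and 2 versus pre-hyperglycemia (both Hnf4a, -1.08 and -0.59), and the first Hnf4a call against pre-hyperglycemia held with each array left out. Gimap5 stood at 5.71 and 5.91 post-hyperglycemia, 5.52 and 5.85 pre-hyperglycemia, against 6.43 and 6.45 in BBDR.+/+. It was called lower than BBDR.+/+ by 0.63 post-hyperglycemia and 0.76 pre-hyperglycemia (limma adjusted p = 0.0191 and 0.0284). With 1 array left out, these differences ranged between -0.73 and -0.53 and between -0.92 and -0.59. Where the probe set lies on the transcript was not examined, and this level does not test the genotype. The signal of the 3′ control probe set minus that of the 5′ one, which grows as the 5′ end of transcripts is lost, was 2.07 ± 0.05 for beta-actin post-hyperglycemia (log2, SD, n = 2), 1.42 ± 0.14 pre-hyperglycemia and 1.24 ± 0.17 in BBDR.+/+, and 1.35 ± 0.03, 0.61 ± 0.09 and 0.58 ± 0.20 for GAPDH in those groups. The post-hyperglycemia arrays thus stood apart on both controls. The part of this in any comparison with those arrays was not tested.

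Alas2 encodes the erythroid form of 5-aminolevulinate synthase, the enzyme that starts heme synthesis in red cell precursors. It was at 8.11 and 8.11 (log2) post-hyperglycemia, 8.41 and 8.46 pre-hyperglycemia, and 7.88 and 7.88 in BBDR.+/+. No array of a group overlapped with another group, and the order was pre-hyperglycemia, then post-hyperglycemia, then BBDR.+/+. Post-hyperglycemia minus BBDR.+/+ was 0.23 (SE 0.10, a 1.17-fold level), post-hyperglycemia minus pre-hyperglycemia was -0.33 (SE 0.10, a 0.797-fold level), and pre-hyperglycemia minus BBDR.+/+ was 0.56 (SE 0.10, a 1.47-fold level). The SE comes from limma, which pools the spread of all 6 arrays and draws each probe set's variance towards the common one.

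Hbb encodes the adult beta chain of hemoglobin. Its probe set was at 12.22 and 12.30 post-hyperglycemia, 12.57 and 12.73 pre-hyperglycemia, and 12.44 and 12.54 in BBDR.+/+. Here too the 3 groups did not overlap, but post-hyperglycemia was now the lowest. Post-hyperglycemia minus BBDR.+/+ was -0.23 (SE 0.11) and post-hyperglycemia minus pre-hyperglycemia was -0.39 (SE 0.11, a 0.764-fold level). Pre-hyperglycemia exceeded BBDR.+/+ by 0.16 (SE 0.11). The beta globin genes are near-identical copies, and this probe set may take up transcripts of more than one of them. Ahsp, which encodes the chaperone that holds free alpha globin until it meets a beta chain, was at 6.06 and 6.03 post-hyperglycemia, 6.18 and 6.36 pre-hyperglycemia, and 5.85 and 6.05 in BBDR.+/+. Both pre-hyperglycemia arrays lay above the other 4, while post-hyperglycemia and BBDR.+/+ overlapped. The differences were 0.09 for post-hyperglycemia minus BBDR.+/+, -0.22 for post-hyperglycemia minus pre-hyperglycemia and 0.32 for pre-hyperglycemia minus BBDR.+/+ (SE 0.12 each).

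Slc4a1 encodes band 3, the anion exchanger that anchors the red cell membrane to its skeleton, and it was read by 2 probe sets. The brighter was at 6.17 and 6.45 post-hyperglycemia, 6.88 and 6.84 pre-hyperglycemia, and 6.52 and 6.23 in BBDR.+/+. Both pre-hyperglycemia arrays again lay above the other 4. Post-hyperglycemia minus pre-hyperglycemia was -0.55 (SE 0.13, a 0.683-fold level) and pre-hyperglycemia minus BBDR.+/+ was 0.48 (SE 0.13, a 1.4-fold level), whereas post-hyperglycemia and BBDR.+/+ overlapped (-0.07, SE 0.13). The other was at 6.30 and 6.16 post-hyperglycemia, 6.39 and 6.53 pre-hyperglycemia, and 6.44 and 6.55 in BBDR.+/+. On it post-hyperglycemia was the lowest group, and pre-hyperglycemia overlapped with BBDR.+/+ (-0.03, SE 0.11). A higher level pre-hyperglycemia than in BBDR.+/+ was therefore seen with 1 of the 2 probe sets of this gene, and over the 6 arrays the probe sets had a Pearson r of 0.22.

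Epb42 encodes protein 4.2, which ties band 3 to ankyrin beneath the membrane. It was at 4.83 and 5.03 post-hyperglycemia, 4.96 and 5.51 pre-hyperglycemia, and 5.06 and 5.13 in BBDR.+/+. The 2 pre-hyperglycemia arrays were farther apart than any group means, and the group overlapped with both others, while post-hyperglycemia lay below BBDR.+/+ without overlap (-0.17, SE 0.16). Rhag, the glycoprotein that carries the Rh complex to the membrane, was at 4.23 and 4.29 post-hyperglycemia, 4.27 and 4.36 pre-hyperglycemia, and 4.42 and 4.27 in BBDR.+/+. All 3 groups overlapped, and the differences ran between -0.09 and -0.03 (SE 0.11).

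Of the 2 transcription factors, Gata1 binds the letters GATA in the control regions of most red cell genes. It was at 3.98 and 4.14 post-hyperglycemia, 4.22 and 4.15 pre-hyperglycemia, and 4.37 and 4.07 in BBDR.+/+. Klf1 binds CACC-rich elements and drives the adult beta globin gene. It was at 6.03 and 5.71 post-hyperglycemia, 5.97 and 6.08 pre-hyperglycemia, and 5.92 and 6.05 in BBDR.+/+. Klf1 overlapped between all groups. Gata1 overlapped with BBDR.+/+ in both BBDR.lyp/lyp groups and lay lower post-hyperglycemia than pre-hyperglycemia without overlap, and its differences of -0.16, -0.13 and -0.03 had an SE of 0.12. Gata1 and Rhag lay below the lower quartile of all probe sets on every array, a quartile that ranged between 4.49 and 4.54. The deposited table holds no call of detection, so whether either was above background is not known.

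**Figure D1:**
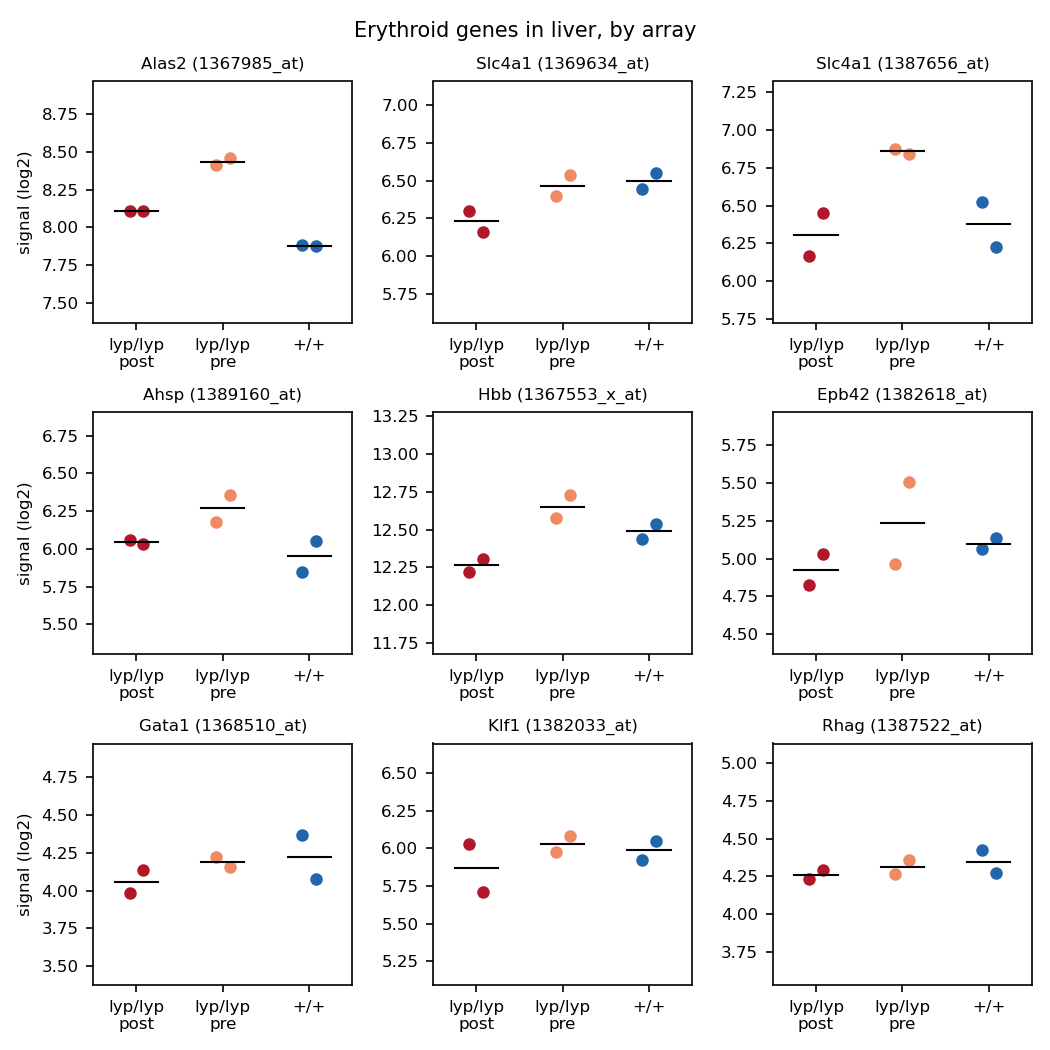
Level of each of the 9 probe sets of the erythroid genes (log2, vertical axis, each panel with its own centre) in BBDR.lyp/lyp post-hyperglycemia, BBDR.lyp/lyp pre-hyperglycemia and BBDR.+/+. Each point is 1 array and each line the mean of a group: Alas2 separates the 3 groups, at 8.11 and 8.11, 8.41 and 8.46, and 7.88 and 7.88, while Rhag and Klf1 overlap throughout.

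With 1 probe set a gene (the brighter for Slc4a1), both pre-hyperglycemia arrays lay above the other 4 for 4 of the 8 genes, Alas2, Slc4a1, Ahsp and Hbb, against 7.61% of all probe sets. The mean level of the 8 genes was 6.45 and 6.51 post-hyperglycemia, 6.68 and 6.81 pre-hyperglycemia, and 6.56 and 6.53 in BBDR.+/+. Post-hyperglycemia minus pre-hyperglycemia was below 0 for 8 of 8 genes, with a median of -0.27 against 0.01 over all probe sets, and 5 of 8 did not overlap on the lower side, where 20.9% of all probe sets did not. Without post-hyperglycemia replicate 2, Klf1 had no difference left (0.00). Pre-hyperglycemia minus BBDR.+/+ had a median of 0.15 over the 8 genes, and 4 of 8 did not overlap on the higher side (21.6% of all probe sets). That median was 0.33 without pre-hyperglycemia replicate 1 and 0.043 without replicate 2, and the sign of Epb42, Gata1, Klf1 and Rhag there turned when 1 array was left out. Post-hyperglycemia minus BBDR.+/+ had a median of -0.10, and its members went both ways, with 1 of 8 higher (Alas2) and 2 of 8 lower (Hbb and Epb42) without overlap, where 26.7% and 22.1% of all probe sets did so. The median was -0.012 without BBDR.+/+ replicate 1, and the sign of Slc4a1, Ahsp and Klf1 there turned when 1 array was left out. Because these genes were chosen on these arrays, nothing is read from their shares against those of all probe sets.

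The calls of the fit over all probe sets are given for the 8 genes as a description only, since the genes were chosen on these values. Adjusted over all probe sets by the Benjamini-Hochberg method with a threshold of 0.05, limma called 0 of the 8 genes post-hyperglycemia versus BBDR.+/+ (1 at an unadjusted p under 0.05, Alas2, higher), where it called 5.15% of all probe sets (10.7% were higher at an unadjusted p under 0.05). Post-hyperglycemia versus pre-hyperglycemia it called 0 of 8 (3 at an unadjusted p under 0.05, all lower), where it called 2.18% (7.65% were lower at an unadjusted p under 0.05). Pre-hyperglycemia versus BBDR.+/+ it called 1 of 8, Alas2, as higher (3 were higher at an unadjusted p under 0.05), where it called 0.464% of all probe sets higher and 0.718% in either direction (6.43% were higher at an unadjusted p under 0.05). The methods' t-test called 0 of 8 in each comparison after adjustment and 1, 2 and 1 of them before it. The Alas2 call was lost after quantile normalization, where the difference was 0.51, and without either pre-hyperglycemia or either BBDR.+/+ array, where it ranged between 0.54 and 0.58. With an intensity trend in the variance, Slc4a1 and Hbb were called lower post-hyperglycemia than pre-hyperglycemia, and with the top 60% of probe sets by mean Slc4a1 was.

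**Figure D2:**
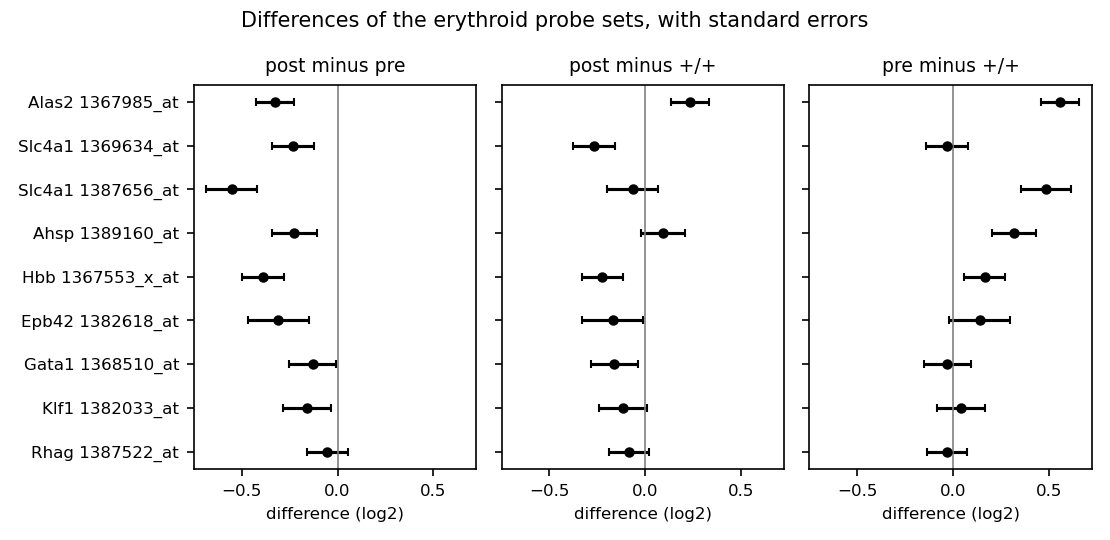
Difference between group means of each erythroid probe set (log2, horizontal axis) for post-hyperglycemia minus pre-hyperglycemia, post-hyperglycemia minus BBDR.+/+ and pre-hyperglycemia minus BBDR.+/+, with bars of 1 limma SE on each side. All 9 probe sets lie below 0 in the first comparison, between -0.55 and -0.05, while in the second Alas2 (0.23) and Ahsp (0.09) lie above 0 and the other 7 below.

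To show the letters that Gata1 and Klf1 recognise, the 250 bases before the annotated start were read from RefSeq (assembly GRCr8) for the members that had an entry, 6 of 8. Both strands were searched for GATAA and CACCC only. Other strings with GATA, such as the GATAG in the Epb42 window, were not counted. GATAA, which reads TTATC on the opposite strand, was found in 3 of these 6 windows, and CACCC, which reads GGGTG on the opposite strand, in 4 of 6. Among 33469 such windows of rat genes, 23.5% held GATAA and 49.2% held CACCC. Below are Alas2 and the globin member Hbb, which both separated the 3 groups, and Klf1, a factor that overlapped between all of them. Either motif is in capitals. The 2 motifs do not overlap, and a match is a string of letters, not a shown site.
Alas2, chrX:22895200-22895449, plus strand: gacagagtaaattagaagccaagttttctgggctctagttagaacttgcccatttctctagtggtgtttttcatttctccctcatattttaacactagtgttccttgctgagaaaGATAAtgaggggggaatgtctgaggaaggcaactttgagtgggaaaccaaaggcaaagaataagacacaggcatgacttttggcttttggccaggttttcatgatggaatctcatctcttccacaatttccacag
Hbb, chr1:167663722-167663971, minus strand: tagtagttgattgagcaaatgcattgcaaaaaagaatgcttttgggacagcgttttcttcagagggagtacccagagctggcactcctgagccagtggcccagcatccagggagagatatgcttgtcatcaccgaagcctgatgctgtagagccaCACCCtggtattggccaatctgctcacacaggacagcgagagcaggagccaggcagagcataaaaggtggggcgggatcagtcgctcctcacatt
Klf1, chr19:40158652-40158901, minus strand: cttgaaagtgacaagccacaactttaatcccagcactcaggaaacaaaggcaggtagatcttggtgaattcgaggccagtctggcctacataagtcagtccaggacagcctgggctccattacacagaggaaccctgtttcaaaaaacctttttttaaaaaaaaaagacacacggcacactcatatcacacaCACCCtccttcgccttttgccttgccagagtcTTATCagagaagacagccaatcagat
The Alas2 window has 1 GATAA, 135 bases before the start, and it lies within the span annotated for the gene, so it need not be the start used in red cells. The Hbb window has 1 CACCC, 95 bases before the start. The Klf1 window has a TTATC at 26 and a CACCC at 58 bases before its start, and that of Rhag has a TTATC at 31 and a GGGTG at 88. The Gata1 window has a CACCC at 128 and at 106 and a GGGTG at 54 bases before its start, and that of Epb42 has neither motif. The windows with a motif belong to genes that differed between groups and to genes that overlapped in all of them.

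5 further globin probe sets carry 2 symbols each and are not members. They were looked at after their values were known. The first of them, annotated to the beta globin genes Hbbl1 and Hbb-bs, was at 11.21 and 11.24 post-hyperglycemia, 11.78 and 11.78 pre-hyperglycemia, and 11.42 and 11.38 in BBDR.+/+, so the 3 groups stood apart in the same order as for Hbb. Post-hyperglycemia minus pre-hyperglycemia was -0.55 (SE 0.10, limma adjusted p = 0.0194), a call that ended without any of those 4 arrays. The other beta globin probe set was at 11.94 and 11.80 post-hyperglycemia, 12.14 and 11.96 pre-hyperglycemia, and 11.67 and 11.61 in BBDR.+/+, with BBDR.+/+ the lowest here. The 3 probe sets of alpha globin, annotated to Hba-a1 and Hba-a2, were 0.21 to 0.22 lower post-hyperglycemia than pre-hyperglycemia, and not called. Both pre-hyperglycemia arrays lay above the other 4 on 5 of 5 of these probe sets. All 5 were read on the same arrays as Hbb, and the 2 beta globin probe sets may share letters with it. They are no separate support for it.

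The other genes of red cell formation were taken from 6 lists of 89 symbols, of which 61 were measured. The lists share arrays and, in part, cells with the 8 genes. Post-hyperglycemia versus BBDR.+/+, 2 of 61 rose, 3 fell and 56 did not pass, where 1.89% of all probe sets rose and 3.26% fell. Versus pre-hyperglycemia 0 rose, 3 fell and 58 did not pass (0.718% and 1.46% of all probe sets rose and fell), and pre-hyperglycemia versus BBDR.+/+ 1 rose, 0 fell and 60 did not pass (0.464% and 0.254%). Medians over the 61 genes were 0.03, -0.03 and 0.03 in that order of comparisons, close to those of all probe sets (0.01, 0.01 and -0.00). Of the 9 calls, 0 held with each array left out in turn, and the methods' t-test called 0 of the 61 genes in each comparison. Of 39 dimmer probe sets of these genes, 2 were called, both lower post-hyperglycemia versus BBDR.+/+ (Cish, -0.94, and Bcl2l1, -0.52).

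Nfe2, the large subunit of the factor NF-E2 that acts at globin and platelet genes, had the group order of Alas2. It was at 8.11 and 8.13 post-hyperglycemia, 8.72 and 8.65 pre-hyperglycemia, and 7.72 and 7.52 in BBDR.+/+. It rose by 1.06 pre-hyperglycemia over BBDR.+/+ (SE 0.11, limma adjusted p = 0.00221), a call lost only without BBDR.+/+ replicate 2 (0.97) and with the methods' t-test. Post-hyperglycemia it was 0.50 above BBDR.+/+ (adjusted p = 0.0243) and fell by 0.56 against pre-hyperglycemia (adjusted p = 0.0265). The first of these ended without either post-hyperglycemia array or BBDR.+/+ replicate 2 (0.41 to 0.51), and the second without any of its 4 arrays. Granulocytes and platelet precursors also express Nfe2. The other 9 factors measured, among them Tal1, Lmo2 and Gfi1b, did not pass in any comparison. Zfpm1, the partner of Gata1, came nearest, at 6.90 and 6.95 post-hyperglycemia against 7.44 and 7.91 pre-hyperglycemia (-0.75, adjusted p = 0.0682).

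Of 13 measured genes of heme synthesis other than Alas2, 0 passed in any comparison (4 higher post-hyperglycemia versus BBDR.+/+, 1 lower versus pre-hyperglycemia and 2 higher pre-hyperglycemia versus BBDR.+/+ at an unadjusted p under 0.05). Alas1, the form of the synthase that all tissues use, was at 11.69 and 11.71 post-hyperglycemia, 11.47 and 11.54 pre-hyperglycemia, and 11.74 and 11.63 in BBDR.+/+, with the lowest values pre-hyperglycemia where Alas2 had its highest. Alad, the next enzyme, was at 11.52 and 11.52, 11.65 and 11.74, and 11.39 and 11.40 in those groups, and pre-hyperglycemia minus BBDR.+/+ was 0.30 (adjusted p = 0.254). These enzymes also serve the hepatocyte, which makes heme for its cytochromes.

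Among enzymes and late genes of red cell precursors, Blvrb, the biliverdin reductase that is abundant in red cells, was at 9.47 and 9.73 post-hyperglycemia, 10.23 and 10.35 pre-hyperglycemia, and 9.69 and 9.84 in BBDR.+/+. It fell by 0.69 against pre-hyperglycemia (SE 0.12, limma adjusted p = 0.017), except without post-hyperglycemia replicate 1 (-0.56) or pre-hyperglycemia replicate 2 (-0.63). Tfrc, the transferrin receptor by which precursors take up iron, was at 10.73 and 10.69 post-hyperglycemia, 10.30 and 10.39 pre-hyperglycemia, and 10.20 and 10.22 in BBDR.+/+, and rose by 0.50 over BBDR.+/+ (adjusted p = 0.0176). Its dimmer probe set went the other way, at 7.02 and 7.56, 7.69 and 7.79, and 7.79 and 7.96 in those groups, so no direction can be given for the gene. The other 8 genes of this list, among them Car2 and Prdx2, did not pass in any comparison.

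In the red cell membrane list, Aqp1, the water channel of red cells and of vessel and bile duct lining, was at 7.20 and 7.39 post-hyperglycemia, 7.62 and 7.63 pre-hyperglycemia, and 7.98 and 8.12 in BBDR.+/+. It fell by 0.76 post-hyperglycemia against BBDR.+/+ (SE 0.11, limma adjusted p = 0.00361), and the call ended without BBDR.+/+ replicate 2 (-0.69). The other 12 genes, among them Ank1 and Sptb, which build the membrane skeleton, did not pass in any comparison, and the list's medians lay between -0.02 and 0.02.

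Erythropoietin drives precursors through its receptor, Jak2 and Stat5. Epo was at 3.57 and 3.83 post-hyperglycemia, 3.96 and 3.85 pre-hyperglycemia, and 3.92 and 4.08 in BBDR.+/+, and neither it nor Epor passed in any comparison. Epo lay below the lower quartile of all probe sets on every array, and whether it was above background is not known. Jak2 was at 5.60 and 5.94 post-hyperglycemia, 6.14 and 6.14 pre-hyperglycemia, and 6.27 and 6.43 in BBDR.+/+, and fell by 0.58 against BBDR.+/+ (limma adjusted p = 0.0268). Cish, a feedback inhibitor that Stat5 induces, was at 8.06 and 8.02, 8.10 and 8.12, and 8.49 and 8.55 in those groups, and fell by 0.48 against BBDR.+/+ (adjusted p = 0.0218). Stat5b fell by 0.46 against pre-hyperglycemia (adjusted p = 0.0455), at 6.78 and 6.72 post-hyperglycemia against 7.19 and 7.24. Growth hormone acts on hepatocytes through the same 3 genes. The Stat5b call was lost after quantile normalization (-0.45) and whichever of the 6 arrays was left out, that of Cish without any of its 4, and that of Jak2 without post-hyperglycemia replicate 1 (-0.41) or either BBDR.+/+ array (-0.66 and -0.50).

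Of the 5 other globin genes measured with 1 symbol, 0 were called in any comparison. Hbe1, an embryonic globin, was at 3.88 and 3.77 post-hyperglycemia, 4.29 and 4.34 pre-hyperglycemia, and 3.88 and 4.09 in BBDR.+/+, below the lower quartile on each array, and differed by -0.49 between the BBDR.lyp/lyp groups (adjusted p = 0.0548). Of the other 4, Hba-a3 was 11.19 and 10.96, 11.37 and 11.23, and 11.01 and 10.97 in those groups. Post-hyperglycemia minus pre-hyperglycemia was -0.23 for it, and 0.09 for Hbe2, 0.09 for Hbg1 and 0.15 for Hbz. Hbg1, at 4.04 to 4.29, also lay below the lower quartile on each array, and Hbz, at 4.62 to 4.86, close above it. Hbe2 was at 5.70 to 5.97, and whether these 3 were above background is not known. The median of the 5 genes there was 0.09, with 3 above 0 and 2 below.

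**Figure D3:**
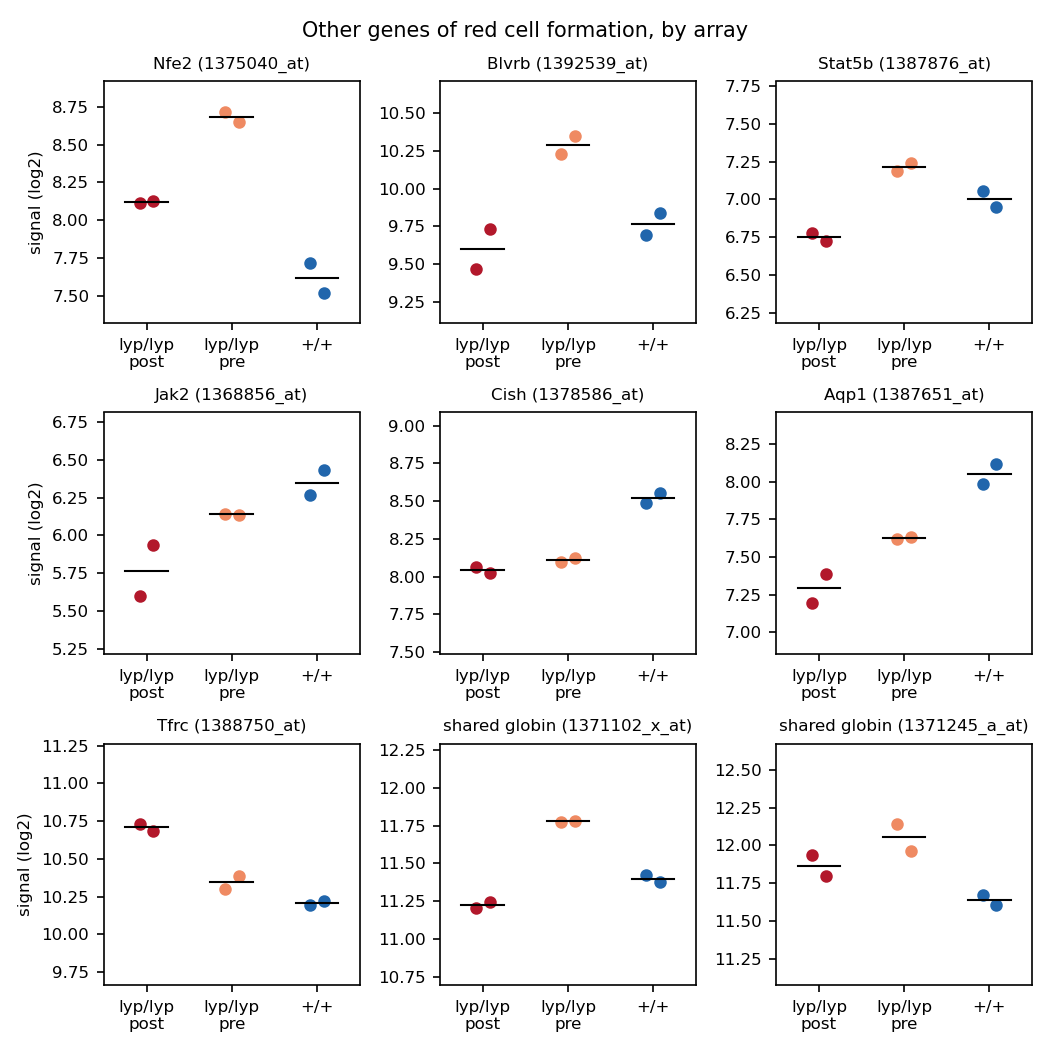
Level (log2, vertical axis, each panel with its own centre) of 7 other genes of red cell formation and 2 globin probe sets that carry several symbols, in BBDR.lyp/lyp post-hyperglycemia, BBDR.lyp/lyp pre-hyperglycemia and BBDR.+/+. Each point is 1 array and each line the mean of a group: Nfe2, Blvrb and the first globin probe set are highest pre-hyperglycemia, and Aqp1 and Cish are highest in BBDR.+/+.

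Blood and blood-forming tissue bring other cells along, and their genes were read beside the 8. Of 25 cell cycle genes, 9 rose and 0 fell pre-hyperglycemia versus BBDR.+/+ (median 0.49), where 0.464% of all probe sets rose and 0.254% fell. Post-hyperglycemia versus BBDR.+/+ 4 rose and 0 fell (median 0.27), where 1.89% and 3.26% did. Post-hyperglycemia versus pre-hyperglycemia 0 rose and 2 fell (median -0.28), where 0.718% and 1.46% did. These shares also stand beside the calls of the lists that follow. Their mean level was 6.23 to 6.24 post-hyperglycemia, 6.47 to 6.49 pre-hyperglycemia and 5.96 to 5.98 in BBDR.+/+, the same order of groups as for Alas2. For 4 of the 25 genes post-hyperglycemia was above pre-hyperglycemia instead, among them Mki67 (0.16, with overlap). Of these 15 calls, 1 held with each array left out in turn, that of Mki67 post-hyperglycemia versus BBDR.+/+ (1.15, limma adjusted p = 0.00125). Cdk1, the kinase that starts mitosis, was at 6.35 and 6.30 post-hyperglycemia, 6.90 and 7.01 pre-hyperglycemia, and 5.84 and 6.14 in BBDR.+/+ (pre-hyperglycemia minus BBDR.+/+ 0.97, limma adjusted p = 0.0056, not called without BBDR.+/+ replicate 1, 0.82). Hepatocytes of young rats divide too, and the part of dividing cells in the levels of the 8 genes was not tested.

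Of 6 granulocyte genes, S100a8 and S100a9, which neutrophils hold in bulk, rose in both BBDR.lyp/lyp groups. Post-hyperglycemia they were 1.29 and 1.46 above BBDR.+/+ (limma adjusted p = 8.11e-04 and 6.33e-04), and pre-hyperglycemia 1.21 and 1.66 (adjusted p = 0.00366 and 0.00105). S100a8 pre-hyperglycemia was not called without either BBDR.+/+ array (1.19 and 1.23). The other 4, among them Camp and Mmp8 of maturing granulocytes, did not pass, and 0 of 6 passed between the BBDR.lyp/lyp groups. Granulocyte list means were 5.13 to 5.16 post-hyperglycemia, 5.14 to 5.23 pre-hyperglycemia and 4.68 on both BBDR.+/+ arrays. S100a8 and S100a9 weigh heavily in these means: the median difference of the 6 genes from BBDR.+/+ was 0.12 post-hyperglycemia and 0.18 pre-hyperglycemia. In BBDR.+/+, S100a8 was at 3.73 and 3.77, below the lower quartile of all probe sets. Of 9 platelet genes, Itgb3 rose by 0.48 post-hyperglycemia over BBDR.+/+ (adjusted p = 0.0322, lost without any of those 4 arrays) and Pf4, the main platelet chemokine, did not pass. Platelet list means were 6.24 to 6.29, 6.23 to 6.30 and 6.13 to 6.21 in those groups. Of 12 lymphocyte genes, Cd8b fell by 0.45 post-hyperglycemia against BBDR.+/+ (adjusted p = 0.0353, lost without any of those 4 arrays), with list means of 5.42 to 5.49, 5.44 to 5.58 and 5.61 to 5.65. In none of these 3 lists did both pre-hyperglycemia arrays have the highest means. BBDR.lyp/lyp rats are lymphopenic, and S100a8 and S100a9 rose in both of their groups. The lymphocyte and granulocyte means therefore do not measure how much blood the tissue held. The part of blood left in the tissue was not tested.

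Of 15 genes that clear hemoglobin and handle iron in the liver, Cd163, the macrophage receptor for hemoglobin bound to haptoglobin, was at 8.35 and 8.50 post-hyperglycemia, 8.0 and 7.93 pre-hyperglycemia, and 7.82 and 7.56 in BBDR.+/+. It rose by 0.73 post-hyperglycemia over BBDR.+/+ (limma adjusted p = 0.00598, not called without BBDR.+/+ replicate 2, 0.61). Spic, a factor of macrophages that recycle red cells, rose by 0.46 there (adjusted p = 0.0272, lost without any of the 4 arrays). Hfe, a regulator of hepcidin, fell by 0.50 against BBDR.+/+ (adjusted p = 0.0286, lost without post-hyperglycemia replicate 1 or either BBDR.+/+ array) and by 0.51 against pre-hyperglycemia (adjusted p = 0.0445, lost whichever of the 6 arrays was left out). Haptoglobin and hemopexin (Hp and Hpx), the plasma proteins that bind free hemoglobin and heme, and Hamp, which encodes hepcidin, did not pass in any comparison. Of 7 genes high in fetal liver, 6, among them Afp and H19, did not pass in any comparison, while Igf2bp3 was higher than BBDR.+/+ by 1.27 post-hyperglycemia and 1.13 pre-hyperglycemia on its brightest probe set (adjusted p = 8.11e-04 and 0.00466), the second not without either BBDR.+/+ array. Its other 2 probe sets differed by -0.15 and -0.11 post-hyperglycemia from BBDR.+/+. They were 0.70 and 0.71 higher pre-hyperglycemia than in BBDR.+/+ (adjusted p = 0.0443 and 0.0215) and fell by 0.85 and 0.82 post-hyperglycemia against pre-hyperglycemia (adjusted p = 0.0101 and 0.00679), where the brightest differed by 0.14 and did not pass, and none of these 4 calls held with each array left out. Post-hyperglycemia versus BBDR.+/+, the mean of the 3 probe sets differed by 0.34 and was not called.

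**Figure D4:**
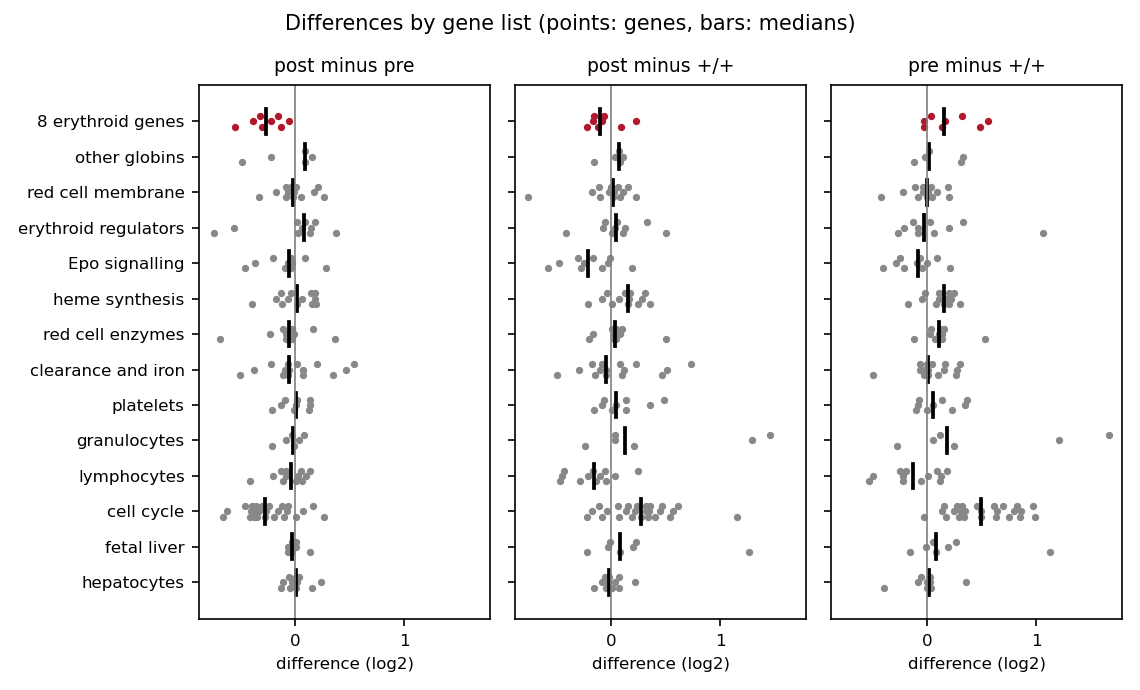
Difference between group means (log2, horizontal axis) of the 8 erythroid genes and of the genes of each list, for the 3 comparisons. Points are genes and bars are medians: the median of the 8 genes is -0.27 for post-hyperglycemia minus pre-hyperglycemia, and that of the cell cycle genes is 0.49 for pre-hyperglycemia minus BBDR.+/+.

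The 8 genes differed among themselves across the 6 arrays. The Pearson r was 0.87 between Alas2 and Ahsp, 0.49 between Alas2 and Hbb and -0.13 between Alas2 and Rhag, over points that share groups and libraries. The genes whose profile was most like the mean of the 8, among 2448 genes with a range of at least 0.5 over the arrays, were Ech1, Irs2, Acsm5, Il1a, Hmmr, Slc6a6, Abcb1a, Fabp7, Prkaa2 and Rps4y2, with r between 0.97 and 0.99 over 6 arrays. In all, 76 of the 2448 genes exceeded 0.9 and 42 were below -0.9. Irs2, an adaptor of the insulin receptor, was at 7.32 and 7.49 post-hyperglycemia, 7.77 and 8.0 pre-hyperglycemia, and 7.51 and 7.54 in BBDR.+/+. Prkaa2, a catalytic subunit of AMP-activated protein kinase, was at 7.54 and 7.53 post-hyperglycemia, 8.05 and 8.20 pre-hyperglycemia, and 7.78 and 7.75 in BBDR.+/+. Of the 10, Hmmr belongs to the cell cycle list and none to the 6 lists of red cell formation.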

How the data were processed

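Liver RNA was hybridised to the Affymetrix rat array with 31099 probe sets. The authors quantified the images with Affymetrix Expression Console, per the labels and methods, and normalized them in Partek Genomic Suite; the deposited values are on the log2 scale, 1 per probe set and array. For software versions and the normalization algorithm, nothing is given in the sources used here. The labels and methods name different amplification kits. After 57 controls were set aside, limma (3.58.1, R 4.3.3) was fitted to 31042 probe sets on all 6 arrays (3 residual and 7.7 prior degrees of freedom), with Benjamini-Hochberg adjustment and a threshold of 0.05. No filter was applied, and the brightest probe set stood for a gene. Symbols came from the platform's annotation, where 20826 probe sets carry 1 symbol, 436 several and 9780 none. The fit was checked on simulated data. Members and lists were chosen with earlier results of these data known. All 9 member probe sets are described. From the lists, genes were named among those called, up to 4 a list and comparison by smallest p, or, where none was called, among those with the smallest p and well known members; some that this covers are not reported here. The alternatives were median centring, quantile normalization, centring on 67 ribosomal protein probe sets, the top 60% by mean, the arrays of 1 comparison, an intensity trend, a replicate block, the methods' t-test, the mean of a gene's probe sets and leaving out each array. Rank product, which the methods name, was not run. All 6 arrays of the series were used, and no BBDR.lyp/+ array is among them. The number of arrays limits the precision, beside the limits given above, and no depth applies. Tables and figures were made in Python 3.11.15 (numpy 2.4.6, pandas 2.3.3, matplotlib 3.10.9).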

Additional observations from a re-analysis of the deposited data

How the results depend on the processing

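Counts of probe sets called over the whole table moved with the model. Post-hyperglycemia versus BBDR.+/+ gave 1599, 0 with the methods' t-test and 291 to 1567 with 1 array left out. Post-hyperglycemia versus pre-hyperglycemia gave 677, 413 on its own arrays, 1225 with an intensity trend, 0 with the t-test and 112 to 537 with 1 array left out. Pre-hyperglycemia versus BBDR.+/+ gave 223, 496 with the trend, 1 with the t-test and 12 to 212 with 1 array left out. Among the 61 other genes of red cell formation, the 5, 3 and 1 calls of these comparisons became 0, 0 and 0 with the t-test, 5, 6 and 4 with the trend, and 0 to 5, 0 to 2 and 0 to 1 with 1 array left out. Whether the replicate numbers of the labels pair samples is not known, since no label says what a number shares. The methods read as repeated liver sampling, so arrays of the 2 BBDR.lyp/lyp groups may share rats. With 2 pairs a comparison, same-numbered deviations had correlations of 0.26, 0.11 and 0.14, which do not settle it. With the replicate numbers as a block, 1191 probe sets and 5 of the 61 genes were called between the BBDR.lyp/lyp groups. Between pre-hyperglycemia and BBDR.+/+ 408 and 2 were called, and no call of a named gene was lost. The calls of Stat5b and Hfe between the BBDR.lyp/lyp groups were also lost on those 4 arrays alone and after centring on ribosomal protein genes (-0.45 and -0.49). The median of the 8 erythroid genes post-hyperglycemia minus BBDR.+/+ (-0.10) was -0.14 with the mean of a gene's probe sets, -0.067 for the 5 members among the top 60% and -0.16 to -0.012 with 1 array left out. Post-hyperglycemia minus pre-hyperglycemia (-0.27) it was -0.33 to -0.15, and pre-hyperglycemia minus BBDR.+/+ (0.15) it was 0.32 among the top 60% and 0.043 to 0.33. Tfrc post-hyperglycemia minus BBDR.+/+ turned to -0.039 with the mean of its probe sets. The causes of these shifts were not tested, apart from the smaller number of arrays or genes that an alternative itself sets.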
